A study of Mus musculus with 2 samples.

Results

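The MHC class II genes described here are H2-Aa, H2-Ab1, H2-Eb1, Cd74, H2-DMa and H2-DMb1, the 6 members taken by name from 22204 gene names counted in ovary sections of C57BL6/J female mice. The old section (replicate 1) came from a mouse of about 14 months and the young section (replicate 3) from a mouse of 2 months, and no other treatment or allele is named for either. Sections came from 2 females per age, and the others were not analysed here. Both were 10 µm cryosections placed on Slide-seq arrays, in which barcoded beads of known position capture polyadenylated RNA, and the planes were picked because they showed several oocytes. Each age is 1 library from 1 animal, so age, animal, plane of section and library cannot be told apart, no test of age was made, and every 95% interval below covers counting error only.

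MHC class II molecules show peptides from taken-up protein to CD4 T cells. An alpha and a beta chain (H2-Aa with H2-Ab1, or the E alpha chain with H2-Eb1) assemble on the invariant chain, Cd74, which guides them to endosomes, and H2-DM, made of H2-DMa and H2-DMb1, exchanges the remnant of Cd74 for peptide. Dendritic cells, macrophages and B cells make these genes constitutively or on activation, and interferon gamma induces them in other cells through the coactivator Ciita, which is brought to the X and Y boxes of their promoters by the RFX complex, CREB1 and NF-Y. In the ovary, macrophages are abundant in stroma and corpora lutea and sparse inside growing follicles.

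In GRCm38.p6, 5 members lie on chromosome 17 and Cd74 lies outside that region, on another chromosome. All 6 are annotated as protein coding. H2-Ab1 lies at chr17:34263227-34269418, H2-Aa at chr17:34282744-34287823, H2-Eb1 at chr17:34305867-34316674, H2-DMa at chr17:34119693-34139101 and H2-DMb1 at chr17:34153191-34160229. The annotated interval of H2-DMa overlaps that of Brd2, and how reads were assigned there is not given in the sources used here. H2-Ea, which would encode the partner of H2-Eb1, is annotated as a transcribed pseudogene and was not analysed here.

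The promoter sequences below are shown because they carry the elements through which this family is known to be switched on. They come from RefSeq windows of 250 bases before to 50 after each gene's start, on the gene's own strand, with motif matches in capitals. In H2-Eb1 and H2-DMb1 the first capitals are the X box core and the second the Y box, and in H2-Aa the first are a CREB site (CRE) and the second the Y box.
H2-Aa, chr17:34287855-34287909, minus strand: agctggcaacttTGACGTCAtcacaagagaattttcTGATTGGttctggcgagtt
H2-Eb1, chr17:34305766-34305824, plus strand: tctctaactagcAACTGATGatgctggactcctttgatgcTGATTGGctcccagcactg
H2-DMb1, chr17:34153087-34153146, plus strand: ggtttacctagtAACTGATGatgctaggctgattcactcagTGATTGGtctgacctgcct
The letters searched on both strands were AACNGATG for the X box core, TGACGTCA for the CRE and TGATTGG for the Y box, chosen after these promoters had been read, so the matches are a description. Of 32851 promoter windows of the same length, 2.32% held the X box core, 1.79% the CRE and 7.82% the Y box. The X box core and the Y box occurred together in 61 windows (0.186%), the windows of H2-Eb1 and H2-DMb1 among them. The 2 annotated start windows of H2-DMa held none of the 3 letter strings. H2-Ab1 and Cd74 were not searched.

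Depth was 2348768 counts over 10267 beads for the old section (median 125 per bead) and 5158314 counts over 21403 beads for the young (median 153). No bead barcode was shared. Ovarian markers were present in both, with the oocyte list at 298.5 CPM in the old section and at 3232 CPM in the young. Levels are CPM, counts scaled to a common total per section, and they are compared between sections, not between genes. The class II genes are sparse at this depth: the list had 1066 counts in the old section against 1456 in the young.

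Summed over the list, class II transcripts were higher in the old section. The list stood at 453.9 CPM in the old section (95% Poisson interval 427.0 to 481.9) and 282.3 CPM in the young (267.9 to 297.1), an old/young ratio of 1.61 (exact conditional binomial interval 1.48 to 1.74). That excess moved with the make-up of the sections. When bins of tissue were matched for the level of granulosa genes, the list came to 343.9 CPM in the old and 352.4 CPM in the young section, a ratio of 0.976. The matched ratio was 1.05 with the old section's make-up as weights and 0.863 with the young section's. This matching, added after seeing the data, is described with the granulosa-rich bins below. In such sections, more class II-bearing cells and more RNA per cell cannot be told apart.

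The A chains differed from each other. H2-Ab1, the A beta chain, had 372 counts in the old section against 348 in the young, or 158.4 CPM and 67.5 CPM, a ratio of 2.35 (2.02 to 2.73). H2-Aa, the A alpha chain, had 87 counts in the old section against 154 in the young, or 37.0 CPM and 29.9 CPM, a ratio of 1.24 (0.943 to 1.62). H2-Ab1 was thus well above counting error in the old section, and for H2-Aa the interval included 1. There were 4.28 H2-Ab1 counts per H2-Aa count in the old section against 2.26 in the young, a ratio of 1.89 (1.40 to 2.56) that needs no section total. With each quadrant of each section left out in turn, this ratio lay between 1.73 and 2.04.

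H2-Eb1, the E beta chain, had 201 counts in the old section against 268 in the young, or 85.6 CPM and 52.0 CPM, a ratio of 1.65 (1.36 to 1.99). Cd74, the invariant chain, had 379 counts in the old section against 600 in the young, or 161.4 CPM and 116.3 CPM, a ratio of 1.39 (1.22 to 1.58). Both were higher in the old section beyond counting error, Cd74 by less than the 1.5-fold used here to count a gene as higher or lower. There were 0.982 H2-Ab1 counts per Cd74 count in the old section against 0.580 in the young. As a share of all class II counts, H2-Ab1 made up 34.9% in the old section (32.0% to 37.8%, exact binomial) and 23.9% in the young (21.7% to 26.2%), and Cd74 35.6% (32.7% to 38.5%) and 41.2% (38.7% to 43.8%).

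The H2-DM chains, which edit the peptide cargo, had ratios below 1, which for H2-DMb1 turned to 1.03 without the old quadrant of low x and low y or the young one of low x and high y. H2-DMa had 9 counts in the old section against 40 in the young, a ratio of 0.494 (0.211 to 1.03), and H2-DMb1 had 18 and 46, a ratio of 0.859 (0.469 to 1.51). Each interval included 1, so neither gene alone showed a difference at this depth. Set against the classical chains H2-Aa, H2-Ab1 and H2-Eb1, however, there were 0.0409 H2-DM counts per classical chain count in the old section against 0.112 in the young, a ratio of 0.366 (0.235 to 0.571).

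By size alone, 2 of the 6 members were at least 1.5-fold higher in the old section and 1 was at least 1.5-fold lower, with a median ratio of 1.31. Of the 12586 genes with at least 20 counts in 1 section, 22.6% were as much higher and 25.4% as much lower, with a median ratio of 0.988.

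**Figure D1:**
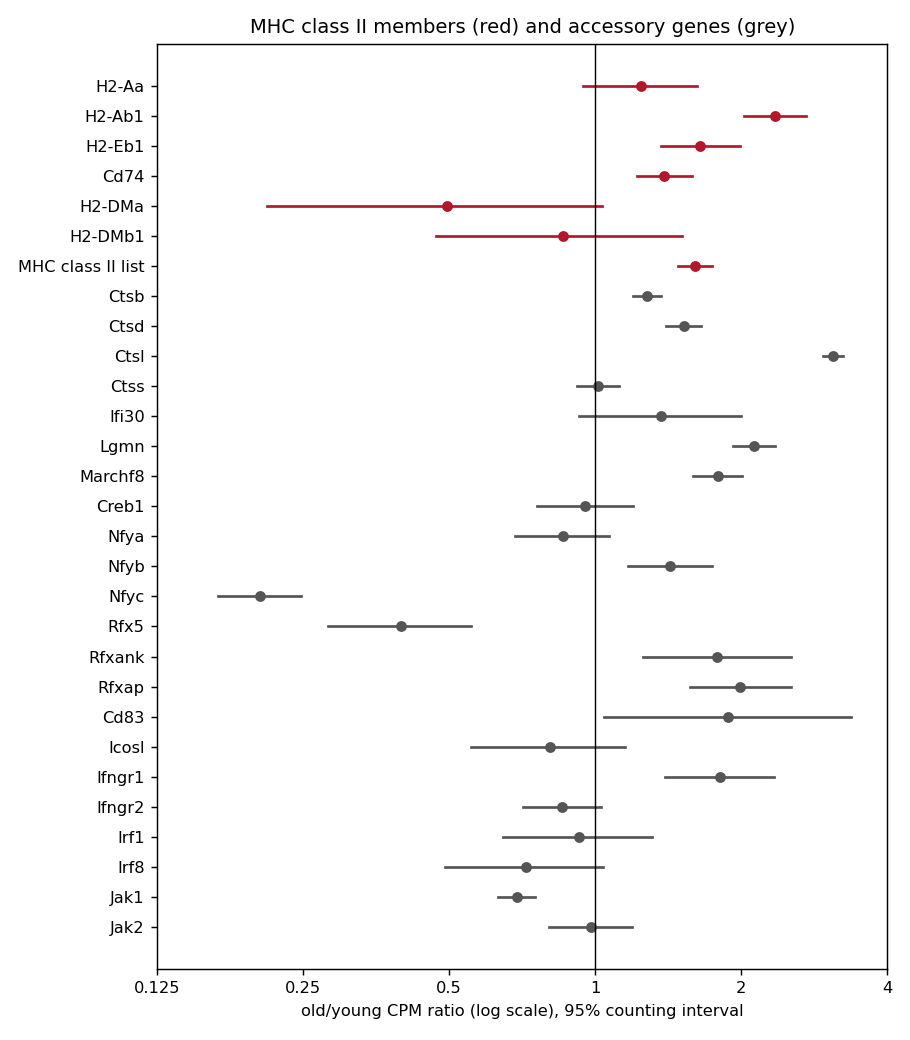
Old/young ratio of CPM on a log scale, with 95% counting intervals, for the 6 class II members and their list (red) and for 22 genes of class II transcription, antigen processing, costimulation and the interferon gamma axis (grey). H2-Ab1 lies at 2.35 and H2-DMa at 0.494, with the other members between them; among the accessory genes Ctsl lies highest at 3.09 and Nfyc lowest at 0.204.

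The genes that serve class II presentation did not move as a block. Of 22 with at least 20 counts in 1 section, 8 were at least 1.5-fold higher in the old section and 2 lower, against the 22.6% and 25.4% of all genes given above, and at 2-fold 2 were higher. The highest values came from endosomal proteases, which differed among themselves. Cathepsin L (Ctsl) had a ratio of 3.09 (2.95 to 3.24) and legumain (Lgmn) of 2.12 (1.92 to 2.35), and cathepsin D (Ctsd) stood at 1.52 (1.40 to 1.65). Below 1.5-fold were cathepsin B (Ctsb) at 1.28 (1.20 to 1.37) and Ifi30 at 1.37 (0.924 to 2.00). Cathepsin S (Ctss), which trims Cd74 in dendritic cells, macrophages and B cells, stood at 250.8 CPM in the old section against 247.8 CPM in the young, a ratio of 1.01 (0.916 to 1.12). Marchf8, a ubiquitin ligase that clears class II and other proteins from the surface, had a ratio of 1.79 (1.59 to 2.01).

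Within the promoter-binding machinery, subunits of the same complex differed in direction. Rfxap and Rfxank had ratios of 1.99 (1.57 to 2.53) and 1.79 (1.25 to 2.54), whereas the third RFX subunit, Rfx5, stood at 18.3 CPM in the old section against 45.9 CPM in the young, a ratio of 0.398 (0.281 to 0.553). Nfyc had a ratio of 0.204 (0.167 to 0.247), Nfya of 0.857 (0.684 to 1.07) and Nfyb of 1.43 (1.17 to 1.74). Creb1 stood at 0.954 (0.758 to 1.19). Ciita, the coactivator on which the family depends, had 6 counts in the old section against 11 in the young, and its ratio of 1.20 (0.364 to 3.53) showed no difference at this depth.

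On the interferon gamma axis, Ifngr1, the ligand-binding receptor chain, had a ratio of 1.81 (1.39 to 2.34). The other measured genes of the axis were not higher. The second receptor chain, Ifngr2, had a ratio of 0.855 (0.709 to 1.03). The kinases Jak1 and Jak2 had ratios of 0.689 (0.631 to 0.752) and 0.981 (0.804 to 1.19). The transcription factors Irf1 and Irf8 had ratios of 0.925 (0.646 to 1.31) and 0.720 (0.491 to 1.04). The costimulatory ligands Cd86 and Cd80 were near the floor of detection, with 6 Cd86 counts in the old section against 14 in the young and 5 Cd80 counts in each. Icosl, another ligand of that list, had 43 counts in the old section against 117 in the young (ratio 0.807, 0.555 to 1.15). Cd83, which stabilises class II on dendritic and B cells, was counted 24 times in the old section against 28 times in the young (ratio 1.88, 1.04 to 3.37). The H2-DO chains H2-Oa and H2-Ob, which restrain H2-DM, had 0 and 4 counts in the old section and 4 and 3 in the young.

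Most class II beads held 1 member, and the classical chains and Cd74 were each higher on beads that held another of them. In the old section 756 of 10267 beads (7.36%) carried a class II count, and in the young section 1060 of 21403 (4.95%). These beads were richer in RNA than the others, with a median of 276 counts against 116 for other beads in the old section and 288.5 against 147 in the young. At least 2 different members were on 134 (17.7%) of the class II beads of the old section and on 148 (14.0%) of those of the young section. The highest bead held 13 class II counts in the old section against 14 in the young.

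In CPM, each of the classical chains and Cd74 was higher on beads with another of the 4 than on the remaining beads. On beads with Cd74, H2-Ab1 was 5.17-fold higher in the old section (4.01 to 6.62). On beads with H2-Eb1, Cd74 was 7.31-fold higher in the old section (5.56 to 9.51) and 9.08-fold in the young (7.22 to 11.3). H2-DMb1 joined this pattern in the young section, where it was 12.8-fold higher on beads with H2-Ab1 (6.03 to 25.3). H2-DMa was mixed there, 8.12-fold higher on beads with H2-Aa (2.10 to 22.6) from 4 counts, while 1 of its 40 counts fell on a bead with H2-Ab1, a ratio of 0.929 (0.0229 to 5.49). In the old section H2-DMb1 was at 0 on beads with H2-Aa (0 to 18.2) and had a ratio of 1.04 on beads with Cd74 (0.0250 to 6.66). H2-DMa and H2-DMb1 shared no bead in either section. With 9 old and 38 young beads holding H2-DMa, the intervals for H2-DMb1 on them reached 95.9 and 24.5. These beads are too few to tell whether the 2 chains lie together or apart.

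Markers of macrophages were higher on class II beads. The macrophage list (16 genes, all detected in both sections) stood at 1813 CPM on class II beads and 583.0 CPM on other beads of the old section, a ratio of 3.11 (2.80 to 3.45), and at 2397 CPM and 617.7 CPM in the young, a ratio of 3.88 (3.61 to 4.16). Apoe, a lipid carrier made in quantity by macrophages, was 4.05-fold and Ctss 3.77-fold higher on class II beads of the old section, and 4.32-fold and 7.22-fold in the young. The granulosa list was lower on class II beads, with a ratio of 0.743 in the old (0.677 to 0.814) and 0.452 in the young (0.432 to 0.472). H2-D1, a class I heavy chain, was 1.86-fold higher on class II beads in the old section against 2.93-fold in the young.

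Other antigen-presenting and lymphoid markers had few counts on class II beads. The dendritic list had 35 counts on class II beads in the old section against 47 in the young, with ratios to other beads of 2.07 (1.38 to 3.04) and 1.58 (1.13 to 2.15). Its members differed: Clec9a, a receptor of cross-presenting dendritic cells, had 4 counts on and 4 off class II beads of the old section, a ratio of 7.29 (1.36 to 39.1), and Flt3 had 3 on and 0 off. In the young section Cd209a had 6 on and 2 off, a ratio of 32.0 (5.72 to 324.1), Batf3 had a ratio of 4.44 (1.23 to 13.5) and Xcr1 had 3 on and 0 off. In the opposite section the same genes had intervals that included 1. Clec9a and Flt3 had ratios of 5.33 in the young, on 3 counts and 1 count. In the old section Cd209a had a ratio of 2.43 on 1 count, Batf3 had 0.810 with 2 on and 18 off, and Xcr1 had 0 on and 1 off. Fscn1, with the most counts of the list, had ratios of 1.11 (old) and 0.794 (young), and Zbtb46 had 1.59 and 0.984. The B and plasma cell list had 8 counts on class II beads in the old section against 6 in the young. Its ratios to other beads were 0.445 (0.188 to 0.903) in the old and 1.23 (0.432 to 2.86) in the young. Over the whole sections it had 139 counts in the old, where Cd79a was at 0, and 58 in the young, where Ighd, Igha and Mzb1 were at 0. The T and NK cell list had 10 counts on class II beads in the old section against 22 in the young, a ratio there of 3.40 (2.00 to 5.56). Of those 22, 14 were Il7r, the interleukin 7 receptor. The T cell receptor chains Trbc2 and Trac had 4 counts and 1 count there, Trbc2 with a ratio to other beads of 7.11 (1.48 to 30.0), and the CD3 chains Cd3d, Cd3e and Cd3g were at 0.

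The old section's class II level was higher both on beads with a macrophage-list count and on beads without one, and the macrophage list itself was not higher. That list stood at 731.4 CPM in the old section against 770.2 CPM in the young (ratio 0.950, 0.897 to 1.01). There were 0.620 class II counts per macrophage-list count in the old section against 0.366 in the young, a ratio of 1.69 (1.54 to 1.87). On beads with a macrophage-list count the class II list stood at 1026 CPM in the old section against 804.5 CPM in the young, a ratio of 1.28 (1.13 to 1.44). On beads with C1qa alone as the marker the ratio was 1.19 (0.992 to 1.43), an interval that includes 1, and on beads with Lyz2 it was 1.25 (1.04 to 1.50). On beads without a macrophage-list count it stood at 326.1 CPM in the old section against 165.6 CPM in the young, a ratio of 1.97 (1.77 to 2.20). Whether the second ratio differed from the first beyond a spread between animals was not tested. Within the macrophage list the markers diverged: Cx3cr1 had a ratio of 1.85 (1.16 to 2.93), whereas Adgre1 (F4/80) stood at 0.340 (0.183 to 0.588), Mrc1 (CD206) at 0.516 (0.376 to 0.696) and Cd68 at 0.536 (0.347 to 0.804).

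Class II transcripts lay in foci. Around beads with at least 3 class II counts (61 in the old section, 79 in the young), the list's level on the surrounding beads, without the central ones, fell with distance. In the old section it was 2089 CPM within 1.5 bead spacings, 1152 CPM from 1.5 to 3, 676.6 CPM from 3 to 5, 458.7 CPM from 5 to 10, 246.3 CPM from 10 to 20 and 177.5 CPM from 20 to 40. In the young section it was 1466, 690.6, 281.7, 203.7, 212.6 and 159.2 CPM over the same rings. In both sections the farthest ring was lower than the one before it, with intervals that did not overlap. The macrophage list fell along with it, standing at 2012 CPM in the nearest and 208.7 CPM in the farthest ring of the old section, and at 4381 and 439.1 CPM in those of the young.

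**Figure D2:**
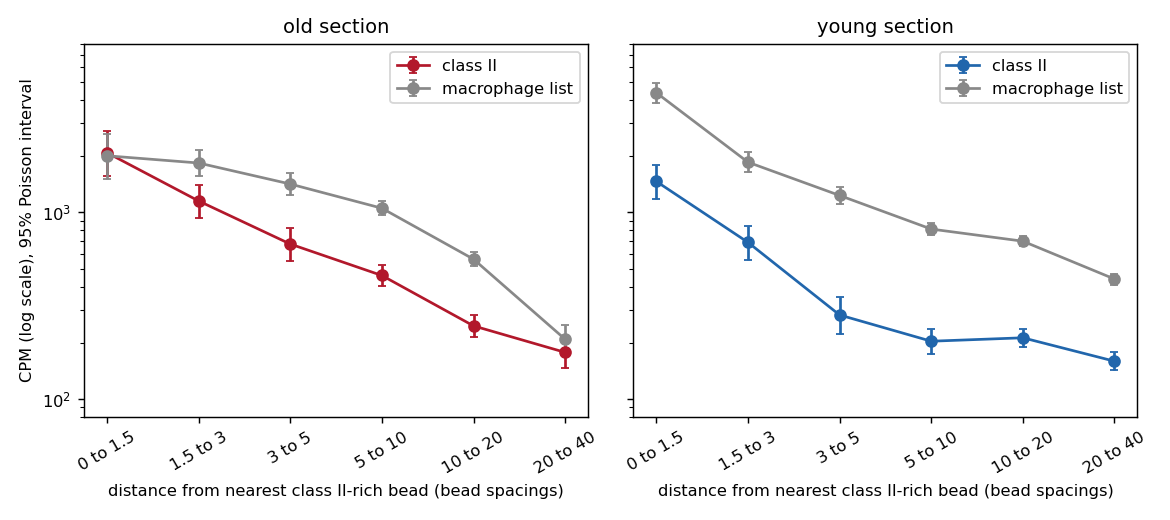
CPM of the class II list (coloured) and of the macrophage list (grey), on a log axis, on beads at increasing distance in bead spacings from the nearest bead with at least 3 class II counts, in the old (left) and young (right) section, with 95% Poisson intervals. The class II level falls from 2089 to 177.5 CPM across the rings of the old section and from 1466 to 159.2 CPM across those of the young.

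For a view of the tissue, beads were gathered into squares of 5 bead spacings with at least 500 counts, giving 895 bins in the old section against 1338 in the young. A class II count was present in 46.6% of bins in the old section against 41.0% in the young, where bins were deeper (median 2071 counts in the old and 3037 in the young). After each bin was thinned to 500 counts, 20.8% of bins in the old section (18.2% to 23.6%) and 12.9% in the young (11.2% to 14.8%) still held one, and after thinning to 1000 counts 28.5% and 22.0% did. The counts were concentrated: the 1 in 10 bins with the most held 52.0% of class II counts in the old section against 58.4% in the young.

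Foci with at least 10 class II counts were 11 bins in 9 patches of the old section, with 144 counts, and 14 bins in 5 patches of the young, with 290 counts. The richest old bin had 25 class II counts (10 of Cd74, 8 of H2-Eb1, 5 of H2-Ab1 and 2 of H2-DMa) beside 7 macrophage-list counts. The richest young bin had 42 (18 of Cd74, 12 of H2-Ab1, 10 of H2-Eb1, 1 of H2-Aa and 1 of H2-DMb1) beside 118 macrophage-list counts, 75 of Ctss and 132 of Apoe. Every one of these bins held macrophage-list counts, 86 in all for the old section and 487 for the young. The old bins differed widely, from 147.5 CPM of that list to 13163 CPM in a bin with 33 of the 86 counts. Some of them were below the section's 731.4 CPM, so not every old focus was rich in macrophage genes. The dendritic list had 8 counts in 3 of the old bins and 7 counts in 5 of the young, and the B and plasma cell list 1 count and 0. A single patch held 9 of the 14 young bins.

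**Figure D3:**
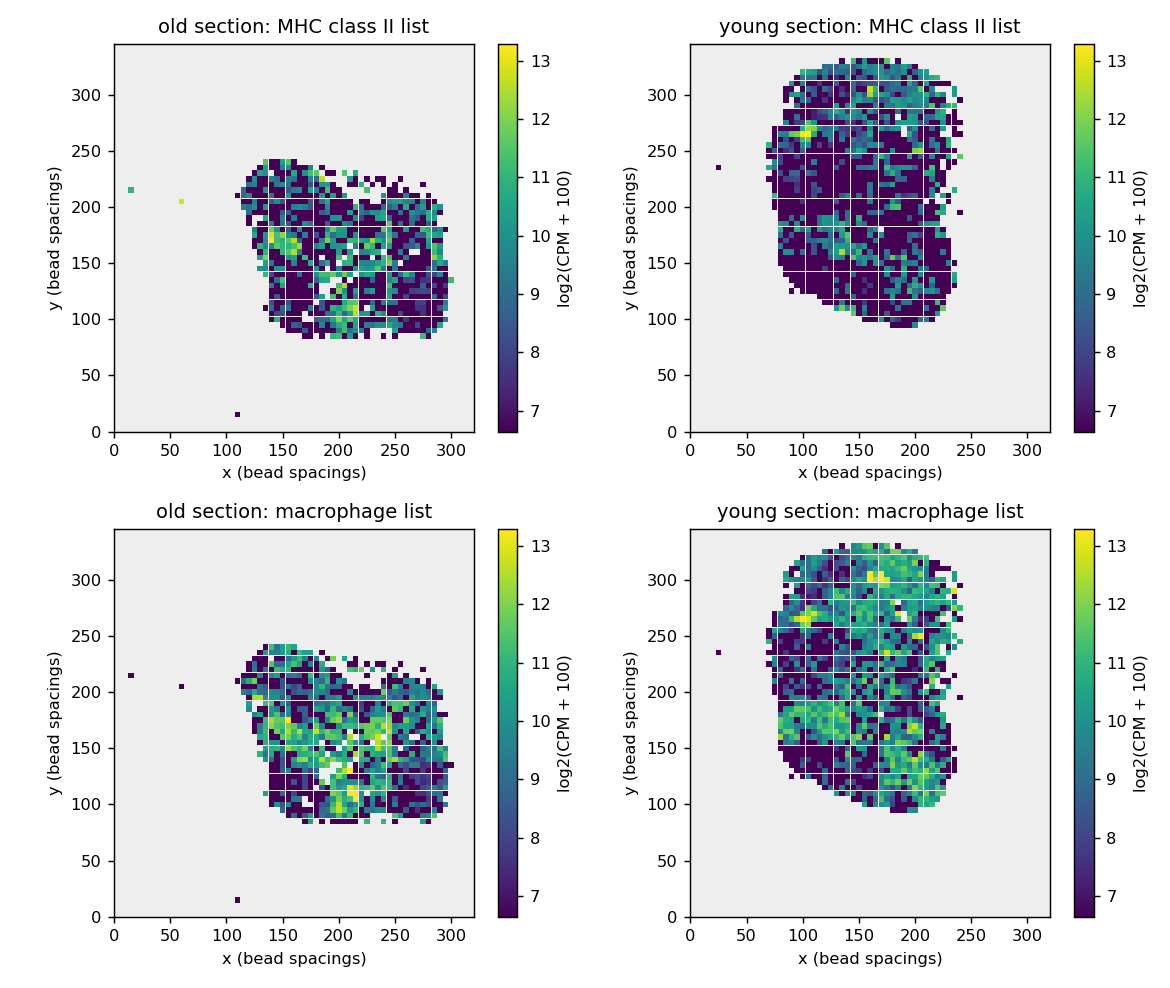
Bins of the old (left) and young (right) section at their place on the array, in bead spacings, coloured by log2(CPM + 100) of the class II list (top) and the macrophage list (bottom); the colour scale ends at 10000 CPM. Class II foci are small and scattered over several places of the old section, and in the young section the brightest lie in the upper part, where the macrophage list is bright too; a few bins lie apart from the tissue.

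Bins rich in macrophage genes held the most class II. The 1 in 5 bins with the highest macrophage-list share stood at 1436 CPM against 296.3 CPM in the other bins of the old section, a ratio of 4.85 (4.27 to 5.50), and at 906.7 CPM against 160.8 CPM in the young, a ratio of 5.64 (5.07 to 6.27). All 4 members with at least 20 counts were at least 1.5-fold higher in these bins of the old section, where 12.9% of all genes were, and all 6 were in the young section, where 11.2% of all genes were. H2-Aa was 5.41-fold and Cd74 5.60-fold higher in them in the old section, and 6.13-fold and 6.07-fold in the young. H2-DMa was 3.61-fold higher in the young section (1.74 to 7.29) and was not measured in the old, where it had 3 and 6 counts in the compared bins.

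The old section's excess of H2-Ab1 was present inside and outside these bins. In macrophage-rich bins H2-Ab1 stood at 478.7 CPM in the old section against 215.2 CPM in the young, a ratio of 2.22 (1.77 to 2.79), and in the other bins at 109.5 CPM and 39.9 CPM, a ratio of 2.74 (2.23 to 3.37). H2-Aa in macrophage-rich bins stood at 122.2 CPM in the old section against 100.2 CPM in the young (ratio 1.22, 0.803 to 1.82). With bins sorted into 4 strata of macrophage-list level common to both sections, the class II list was higher in the old section in each, with ratios of 2.98, 1.60, 1.50 and 1.48 in order of rising macrophage level, and weighting the strata equally for both sections gave 1.67. Matching for macrophage genes thus left the excess in place.

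Bins rich in granulosa genes held little class II. The 1 in 5 bins richest in the granulosa list stood at 156.2 CPM against 551.6 CPM in the other bins of the old section, a ratio of 0.283 (0.227 to 0.350). In the young they stood at 71.2 CPM against 359.5 CPM, a ratio of 0.198 (0.160 to 0.243). Gja1 (1688), Nr5a2 (1081), Kctd14 (725) and Fst (707) gave most of the list's 5586 old counts. Gja1 (18957) and Inhba (9526) gave most of its 50788 young counts. Fshr had 7 old and 56 young counts, and Amh 6 and 15. In these bins of the old section all 4 measured members were lower by 1.5-fold or more, against 14.3% of all genes, and all 6 in the young, against 24.7%. Cd74 had ratios of 0.241 in the old section against 0.157 in the young. Contiguous granulosa-rich areas showed how low the level could go: a patch of 49 young bins held 1 class II count in 227656, or 4.39 CPM (0.111 to 24.5), and the largest, of 135 bins, stood at 92.5 CPM. In the old section, 3 such patches of 18 to 30 bins stood at 72.5, 141.4 and 144.3 CPM. The patch at 141.4 CPM had a luteal-list level of 14402 CPM, against 13601 CPM in the old luteal patch described below. The patch at 72.5 CPM was centred close to a patch rich in the ovulation genes described next. In the old section the granulosa list thus did not mark follicles alone.

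The old section also held areas rich in genes induced in the follicle around ovulation (Adamts1, Ptgs2, Tnfaip6 and others), which had 3696 counts there and 154 in the young section. Adamts1 alone gave 3571 of the old and 121 of the young counts, with 32 old counts of Ptgs2 and 23 of Tnfaip6. The bins called periovulatory-rich here are thus in effect bins rich in Adamts1. The class II list stood at 116.5 CPM in the richest 1 in 5 of bins and 611.7 CPM in the other bins of the old section, a ratio of 0.190 (0.151 to 0.237), or 0.110 for the 1 in 10 richest bins. There, all 4 measured members were lower by 1.5-fold or more, against 25.9% of all genes. H2-Ab1 stood at 53.7 CPM against 210.4 CPM, a ratio of 0.255 (0.180 to 0.354), and Cd74 at 30.1 CPM against 222.2 CPM, a ratio of 0.136 (0.0847 to 0.207).

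The sections differed greatly in the level of the granulosa list, and the class II difference moved with it. The granulosa list stood at 2378 CPM in the old section against 9846 CPM in the young. With bins sorted into 5 common strata of granulosa-list level, the lowest held 28.6% of the counts of the old section and 4.39% of those of the young, and the highest 4.45% and 39.5%. In the lowest stratum the class II list stood at 786.3 CPM in the old section against 509.8 CPM in the young, a ratio of 1.54 (1.26 to 1.91). In the next 3 strata it was lower in the old section, with ratios of 0.846, 0.821 and 0.568, and in the highest the ratio was 1.13 (0.573 to 2.01) on 12 old counts. Weighted to the mean make-up of both sections, the ratio was the 0.976 given above. It was 1.05 with the old section's make-up and 0.863 with the young section's, so its side of 1 depended on the weights. No interval was computed for these weighted ratios.

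**Figure D4:**
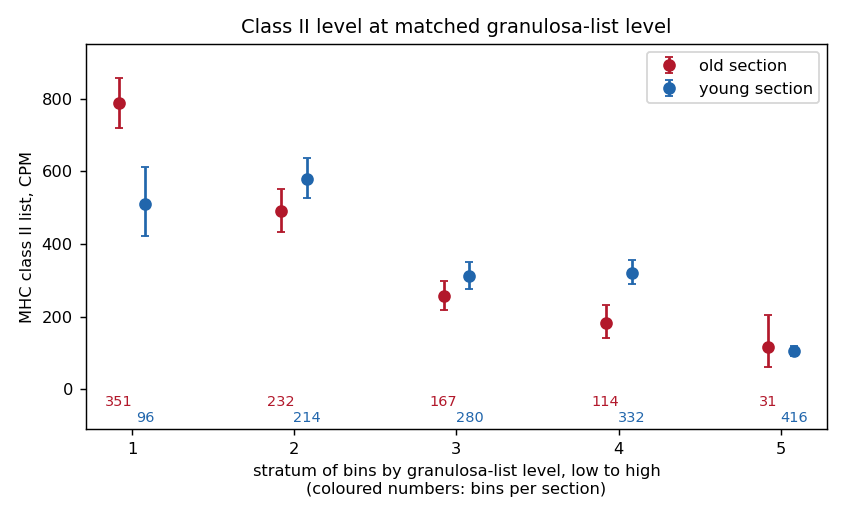
CPM of the class II list with 95% Poisson intervals in 5 strata of bins, ordered by granulosa-list level, in the old (red) and young (blue) section; the coloured numbers are bins per section. The level falls with rising granulosa level in both, the old section is higher in the lowest stratum (786.3 against 509.8 CPM), and 351 old but 96 young bins lie in that stratum.

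At equal granulosa make-up H2-Ab1 still had the highest ratio of the members. H2-Ab1 stood at 120.3 CPM in the old section against 89.4 CPM in the young, a ratio of 1.35. Cd74 stood at 118.8 CPM and 140.7 CPM, a ratio of 0.844, and H2-Aa at 28.4 CPM and 38.0 CPM, a ratio of 0.749. H2-Eb1 had a ratio of 1.03, H2-DMa of 0.490 and H2-DMb1 of 0.430. With the periovulatory-rich bins of the old section left out as well, the list had a ratio of 1.30, H2-Ab1 of 1.72 and H2-Aa of 1.00, and with those bins left out and no matching the list had a ratio of 2.19. The ratio of the list thus lay between 0.863 and 2.19 with the tissue compared and the weights. That of H2-Ab1, matched only to the mean make-up of both sections, lay between 1.35 and 3.11.

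**Figure D5:**
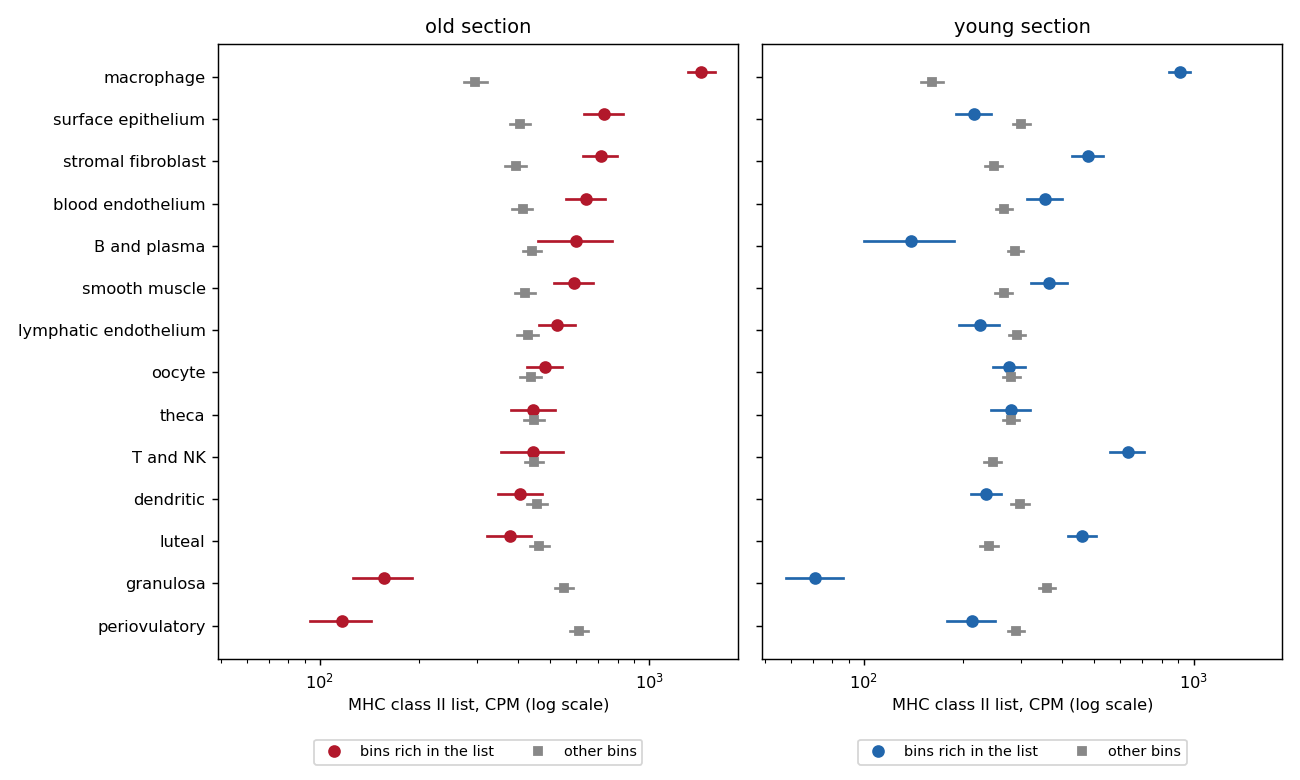
CPM of the class II list, on a log axis with 95% Poisson intervals, in bins rich in each of 14 gene lists (circles) and in the other bins of the same section (grey squares), for the old (left) and young (right) section. Macrophage-rich bins are highest in both, at 1436 and 906.7 CPM, and granulosa-rich bins are low in both, at 156.2 and 71.2 CPM.

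Corpora lutea, the progesterone-forming bodies left by ovulated follicles, gave different pictures. Bins rich in luteal genes (Ptgfr, Akr1c18, Prlr and others) stood at 377.0 CPM against 463.7 CPM in the other bins of the old section, a ratio of 0.813 (0.685 to 0.960), and at 459.2 CPM against 240.3 CPM in the young (ratio 1.91, 1.70 to 2.14). With bins of 8 spacings the old ratio was 1.03. The levels within luteal patches were closer than these ratios: an old patch of 129 bins stood at 355.1 CPM (296.9 to 421.4), and young patches of 78, 76 and 50 bins at 451.6 (372.2 to 542.9), 379.2 (296.7 to 477.5) and 353.9 CPM (290.3 to 427.2). The macrophage list in those patches stood at 523.1 CPM in the old one and at 1555, 1627 and 1163 CPM in the young ones. The class II level per macrophage-list count was therefore higher in the old patch, with 131 class II and 193 macrophage-list counts, than in the young ones, the largest of which had 113 and 389. The patches were not alike in other genes. Star stood at 2266 CPM in the old patch and 403.6, 305.4 and 478.4 CPM in the young ones, and Lgals3 at 227.7 against 2801, 3592 and 2746 CPM. Ptgfr was nearer, at 2147 CPM against 2678, 1943 and 2982 CPM.

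Bins rich in fibroblast, blood endothelial or smooth muscle genes held more class II than the other bins in both sections. Bins rich in fibroblast genes had ratios of 1.81 in the old section (1.57 to 2.08) and 1.93 in the young (1.70 to 2.19), bins rich in blood endothelial genes 1.56 and 1.33, and bins rich in smooth muscle genes 1.41 and 1.37, or 1.05 and 1.19 for the 1 in 10 richest. Bins rich in lymphatic endothelial genes had a ratio of 1.23 in the old section (1.06 to 1.42) and 0.770 in the young (0.661 to 0.892). Bins rich in surface epithelium genes stood at 726.9 CPM against 404.7 CPM in the old section, a ratio of 1.80 (1.54 to 2.09), and at 215.2 CPM against 300.2 CPM in the young, a ratio of 0.717 (0.626 to 0.819), which turned to 1.15 with bins of 8 spacings and 1.33 with the 1 in 10 richest bins. Bins with a T or NK cell gene had a ratio of 0.993 in the old section (0.786 to 1.24) and 2.56 in the young (2.24 to 2.93), where 5 of 6 members were at least 1.5-fold higher, against 13.5% of all genes. Bins rich in the theca list had ratios of 0.994 (old) and 0.999 (young), and of 1.58 (old) and 0.492 (young) for the 1 in 10 richest bins. Most of that list's counts were Fdx1 and Mgarp in the old section (5243 and 3138 of 10039) and Aldh1a1 in the young (32140 of 46851). Cyp17a1 had 7 old and 685 young counts, and Insl3 1 and 17. The list thus did not mark theca alone, and different genes led it in each section. Bins with a dendritic-list gene had class II ratios of 0.890 in the old section (0.752 to 1.05) and 0.790 in the young (0.699 to 0.891). For the 1 in 10 bins richest in that list the ratios were 1.52 and 1.01.

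The outer and inner bins of the tissue had similar levels, within their intervals. Bins of the outer band of 3 stood at 461.2 CPM and inner bins at 437.0 CPM in the old section, a ratio of 1.06 (0.924 to 1.20), and at 258.1 and 286.0 CPM in the young (ratio 0.902, 0.794 to 1.02). With an outer band of 5 bins the old ratio was 0.810, and with 2 bins the young one was 1.07. Around oocytes, bins with at least 10 oocyte-list counts making up at least 1% of the bin stood at 80.6 CPM in the young section, against 249.2 CPM in bins more than 20 spacings away, a ratio of 0.324 (0.232 to 0.441). Bins within 5 spacings of them stood at 360.5 CPM, a ratio to the distant bins of 1.45 (1.20 to 1.73). The old section had 5 oocyte bins with 3 class II counts and 12 neighbouring bins with 9, too few to compare.

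Of the 10 genes whose level over bins most resembled that of the class II list, 2 in the old section (C1qa and Lyz2) and 3 in the young (those and C1qb) belonged to the macrophage list. Over 895 old and 1338 young bins, with likeness measured by Pearson's r of log2(counts per 10000 + 1), 5 genes were among the first 10 of both sections. They were Apoe (r = 0.38 in the old and 0.41 in the young), Ctss (0.32 and 0.41), C1qa, a complement component of tissue macrophages (0.31 and 0.33), Lyz2, the lysozyme of myeloid cells (0.30 and 0.39), and H2-D1 (0.20 and 0.27). The rest of the first 10 were Selenop, Pltp, Fth1, Dcn (a gene of the fibroblast list) and Pla2g7 in the old section, at 0.29 to 0.20, and Tmsb4x, Lgals3, Atp6v0d2, C1qb and Ptprc in the young, at 0.37 to 0.25. The 5 lowest genes were Nr5a2, Vcan, Zmiz1, Aif1l and Fkbp1a in the old section (-0.22 to -0.19) and Inha, Dock9, Cnmd, Map3k5 and Sema5a in the young (-0.22 to -0.20), with 1 granulosa-list gene in each, and the median over all genes ranked was -0.01 in both. Bins share a library and vary in depth, and in sparse counts such values are small, so they serve to rank genes and carry no p-value.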

How the data were processed

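The deposited tables hold whole-number counts per gene and bead, made by the authors, and the position of each bead in an unstated length unit. Per the submitters' processing notes the build was mm10; not given in the sources used here are aligner, annotation, strand handling, and whether a count is a molecule or a read. The tables list beads with at least 10 counts, all of which were kept, and a gene listed for 1 section was taken as 0 in the other. The members and all gene lists were chosen with earlier results of these data known.

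Counts were summed per section, bead class or bin and scaled to CPM. Ratios carry exact conditional binomial (Clopper-Pearson) intervals, levels exact Poisson intervals and ratios of 4 counts normal log-scale intervals, all at 95%. A bead spacing is the median distance to the nearest bead with counts. A gene was measured with at least 20 counts in 1 of the compared parts and called higher or lower at 1.5-fold, without a test. Bins were called rich in a list by the highest 1 in 5 shares, or, for sparse lists, by at least 1 count. Patches are at least 15 adjoining rich bins. Likeness used genes with at least 50 counts. Members were named in full, accessory genes if measured; 1 accessory gene is not reported here and was left out of its list. RefSeq (GRCm38.p6) matched 18804 of 22204 gene names and all 6 members, of which 4 had promoter windows that were used. The ratio and likeness steps were tested on simulated counts. Tools were Python 3.11.15, numpy 2.4.6, scipy 1.17.1, pandas 2.3.3 and matplotlib 3.10.9. Alternatives covered bead depth, totals, a trimmed-mean scaling, bin size and minimum, list members and each quadrant left out.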

Additional observations from a re-analysis of the deposited data

Results flagged for a closer look

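The class II level of 4 kinds of bins stood on opposite sides of the other bins in the old and the young section; the difference between sections was not tested. In bins with a B or plasma cell gene the ratio to other bins was 1.36 in the old section (1.03 to 1.76) and 0.483 in the young (0.347 to 0.657). In luteal-rich bins it stood at 0.813 (old) and 1.91 (young), and the old value turned to 1.03 with bins of 8 spacings. In surface epithelium-rich bins it stood at 1.80 (old) and 0.717 (young), and the young value turned to 1.15 with bins of 8 spacings and 1.33 with 1 in 10 bins. On class II beads the surface epithelium list was higher in both sections, by 1.73 (old, 1.50 to 2.00) and 1.68 (young, 1.30 to 2.13). In lymphatic endothelium-rich bins the class II ratio stood at 1.23 in the old section (1.06 to 1.42) and 0.770 in the young (0.661 to 0.892). The bead ratios of the luteal list (0.934 and 1.09) and the lymphatic list (1.32 and 0.790) lay on the same sides as their bins. The B and plasma cell bins numbered 46 (old) and 50 (young), with 61 and 42 class II counts, and Igkc, the kappa light chain of antibodies, had 86 counts in the old section against 10 in the young. By bead the sides were the other way round. On class II beads the B and plasma cell list had ratios to other beads of 0.445 (old, 0.188 to 0.903) and 1.23 (young, 0.432 to 2.86).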

How the results depend on the processing

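No paired analysis was possible because the 2 sections share no replicate number and each age has 1 library. Of 192 alternative values, 46 were of the main comparisons, of which 32 moved by less than the counting interval, 13 moved further and 1 reversed. The others moved further in 34 cases and reversed in 4, against 108 that stayed; a reversal is counted where the interval of the reported ratio excluded 1, and a further 9 ratios whose interval included 1 crossed it. The old/young ratio of the class II list (1.61) was 1.76 without Cd74, 1.46 and 1.84 without the old quadrants of low x with high y and of high x with low y, and 1.93 without the young quadrant of high x and high y. In alternatives chosen after seeing the data it was 0.976 at equal granulosa make-up, 1.30 with old periovulatory-rich bins also left out and 2.19 with those bins left out alone. Per macrophage-list count (1.69) it was 1.97 without the young quadrant of low x and high y. The macrophage-rich ratio was 5.69 with 1 in 10 bins called rich, and 4.20 and 5.78 without the low x, high y and the high x, high y quadrants, in the old section (4.85), and 6.62, 4.37 and 6.47 under the same 3 changes in the young (5.64). The luteal ratio of the old section turned to 1.03 with bins of 8 spacings. The dendritic ratio of the old section (0.890) came to 1.28 with bins of 8 spacings and 1.52 with 1 in 10 bins called rich. In the young section the dendritic ratio (0.790) turned to 1.01 with 1 in 10 bins, and the surface epithelium ratio to 1.15 with bins of 8 spacings and 1.33 with 1 in 10 bins. At 2-fold, 2 accessory genes were higher in place of 8. Where no construction shows it, the cause was not tested. Depth limits H2-DMa and H2-DMb1, with 9 and 18 old counts, and, among accessory genes, Ciita, Cd80, H2-Oa and H2-Ob.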

Other observations

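Class I genes, which present peptides to CD8 T cells, changed less with granulosa matching than the class II list did. H2-K1 stood at 447.0 CPM in the old section and 212.8 CPM in the young at equal granulosa make-up, a ratio of 2.10, against 2.66 without matching. H2-D1 had a ratio of 1.12 with matching and 1.54 without. B2m, their light chain, had a ratio of 0.828 with matching and 1.06 without. Over the same bins the macrophage list had a ratio of 0.588 with matching and 0.951 without.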
